A study of Caenorhabditis elegans with 12 samples.

Results

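The flavin-containing monooxygenase family of Caenorhabditis elegans is represented by 5 genes, fmo-1 to fmo-5, among the 45327 genes listed in the table of normalized counts. They were taken by their symbol, and all 5 had enough reads to be tested. The family was chosen by the measured separation of the 2 strains in fmo-2, so the strain differences of the fmo genes are given as a description. Where members past the call rule are counted in a strain comparison, the count stands beside the share of all genes called and nothing is read from it. The changes with vitamin C are tested. They share their libraries with that choice, so their p-values are not fully independent of it.

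Whole worms of 2 strains were sequenced, the wild type N2 and wrn-1(gk99), a mutant with a deletion in the worm ortholog of the helicase gene lost in Werner syndrome. Each strain was grown from L1 larvae at 25°C with 0 or 10 mM vitamin C (sodium L-ascorbate) in the plates and collected at the L4 stage. The authors staged the worms by eye from vulva and gonad formation under Nomarski optics, to match the slower mutant by stage and not by hours. The 4 groups N2, N2 vitC, wrn-1(gk99) and wrn-1(gk99) vitC had 3 replicates each, biological by the authors' account. A library is a population of whole worms, in which fewer cells of a type and less RNA per cell cannot be told apart.

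Flavin-containing monooxygenases bind FAD, take electrons from NADPH and use oxygen to add an oxygen atom to nitrogen or sulfur in small molecules. In mammals they are known for the clearance of drugs and dietary amines. In C. elegans fmo-2 is the best studied member: it is induced in the intestine by hypoxia through HIF-1 and by fasting through NHR-49 and HLH-30, and it has been linked to life span. The other members are less studied, and fmo-4 has been described in the hypodermis.

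The libraries held 13446257 to 34234211 reads on genes (median 20136361). In N2 and wrn-1(gk99), replicates 1 and 2 differed by little more than counting error. Their chi-square per gene, which grows with spread beyond counting error, was 1.68 and 1.34, against 5.18 to 8.26 for pairs with replicate 3. In N2 vitC and wrn-1(gk99) vitC it was 6.02 and 19.2 for replicates 1 and 2. How separate the replicates were was not tested, and the standard errors treat them as independent. The library labelled N2-3-vitC, the third replicate of N2 vitC, stood apart from its group. Over 14352 genes its log2 values correlated at 0.960 to 0.961 with the other N2 vitC libraries and at 0.994 to 0.996 with the 3 libraries of wrn-1(gk99) vitC. The wrn-1 gene had 516, 499 and 502 normalized counts in N2, 407, 380.3 and 614 in N2 vitC, 854, 789 and 699.9 in wrn-1(gk99), and 835, 648 and 671 in wrn-1(gk99) vitC. The allele is a deletion within the gene, so reads from the rest of the gene are still counted and its total does not show the deletion. The total was higher in all 3 untreated mutant libraries than in all 3 of untreated N2. N2-3-vitC, at 614, lay between the other N2 vitC libraries and those of wrn-1(gk99) vitC. Whether a label is wrong was not tested. The tests and levels of the fmo genes that use N2 vitC are given with and without this library.

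By the annotation of WBcel235, a later build than the ce10 of the deposited table, fmo-1 (K08C7.2, 8 exons) and fmo-2 (K08C7.5, 5 exons) lie on the same strand of chromosome IV, 18.119 kb apart, with 3 protein-coding genes between them. fmo-3 (Y39A1A.19, 7 exons) is on chromosome III, and fmo-4 (F53F4.5, 7 exons) and fmo-5 (H24K24.5, 7 exons) are on chromosome V. No annotated gene overlapped any of the 5. The closest neighbour of fmo-2 was K08C7.6, 64 bases away on the opposite strand, and the closest neighbour of fmo-1 was K08C7.7, 29 bases away on the same strand.

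fmo-2 was read at a very low level in untreated N2 and at a higher one in every library of the mutant. It had 21.5, 38.5 and 18.1 normalized counts in N2, which rest on 16, 29 and 17 reads. In wrn-1(gk99) it had 192, 186 and 202, and in wrn-1(gk99) vitC 275, 303 and 285. All 6 libraries of the mutant were above all 3 of untreated N2, and treated mutant worms were above untreated ones in every library. In N2 vitC it had 9.42 and 23.5 in replicates 1 and 2, from 8 and 19 reads, and 290.3 in replicate 3, from 341 reads. The exact Poisson 95% intervals, which cover counting error only, were 3.45 to 15.8 and 11.4 to 29.7 reads for replicates 1 and 2 and 306 to 379 for the third. The third library was thus 17.6 times the mean of the other pair and 1.01 times the mean of wrn-1(gk99) vitC.

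fmo-1 was the most abundant member in wild type worms and was lower in the mutant. It had 5784, 5685 and 5656 normalized counts in N2 against 2633, 2563 and 2784 in wrn-1(gk99). With vitamin C the strains came close, at 3874, 3930.3 and 3648 in N2 vitC and 3597, 3508 and 3716 in wrn-1(gk99) vitC. Both treated groups lay between the untreated ones, with no overlap with either. The library N2-3-vitC was the lowest of its group, at 0.935 times the mean of the other pair.

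fmo-3 ran the other way. It had 261, 317 and 294 in N2 and 611, 654 and 594 in wrn-1(gk99). The treated groups were again between the untreated ones, at 325, 319.6 and 395 in N2 vitC and at 384, 404 and 403 in wrn-1(gk99) vitC. The gap between N2 and N2 vitC was narrow, from 316.9 to 319.6, while the lowest untreated mutant library, at 594, was well above the highest treated one, at 404.

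fmo-4 was the member that was lower with vitamin C in both strains. It had 2884, 2899 and 2939 in N2 and 2097, 1969 and 2695 in N2 vitC, and it had 3592, 3636 and 3423 in wrn-1(gk99) and 2668, 2757 and 2686 in wrn-1(gk99) vitC. Treated and untreated libraries did not overlap in either strain. In N2 vitC the third library was 1.33 times the mean of the other pair.

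fmo-5 varied least. It had 725, 743 and 745 in N2, 721, 761 and 666 in N2 vitC, 633, 619 and 622 in wrn-1(gk99) and 665, 624 and 702 in wrn-1(gk99) vitC. All 3 untreated mutant libraries were below all 3 of untreated N2, and the remaining groups overlapped with their neighbours.

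**Figure D1:**
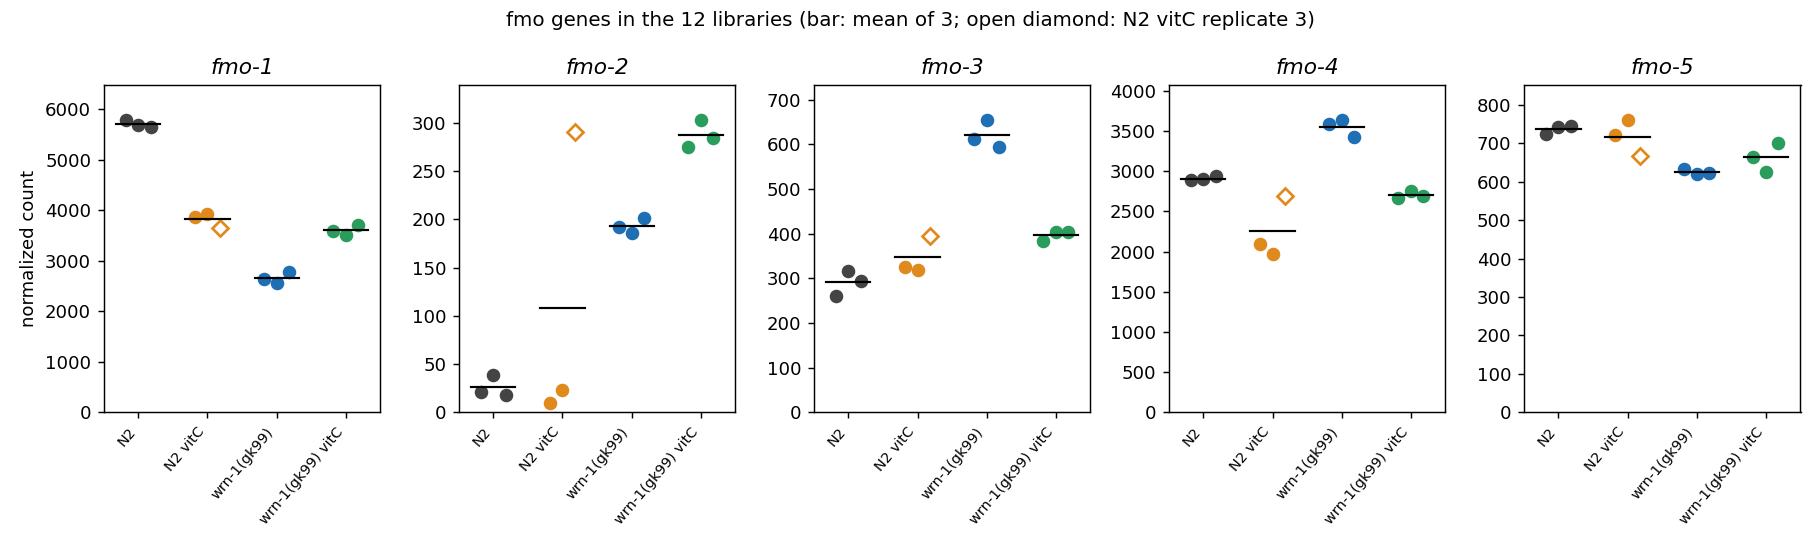
Normalized counts of fmo-1 to fmo-5 (y axis, from 0, own scale for each gene) in the 12 libraries, by group on the x axis, with the mean of 3 libraries as a bar and the library labelled N2-3-vitC as an open diamond. For fmo-2 the diamond is at 290.3, beside the wrn-1(gk99) vitC libraries at 275 to 303, while the other N2 vitC libraries are at 9.42 and 23.5.

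To compare levels between genes, the normalized counts were divided by the length of the annotated exons. In N2 fmo-1 was highest at 2853 ± 33.8 normalized counts per kb (SD, n = 3), followed by fmo-4 at 1438 ± 14.1, fmo-5 at 421 ± 6.14, fmo-3 at 178 ± 17.4 and fmo-2 at 15.7 ± 6.57. The order of the family was different in wrn-1(gk99). There fmo-4 led at 1756 ± 55.8 per kb, above fmo-1 at 1329 ± 56.4, and fmo-3 at 381 ± 18.9 stood just above fmo-5 at 357 ± 4.14. In wrn-1(gk99) vitC the order was that of N2 again, with fmo-1 at 1803 ± 52.1, fmo-4 at 1337 ± 23.2, fmo-5 at 379 ± 22.2, fmo-3 at 244 ± 6.90 and fmo-2 at 173 ± 8.52. In N2 vitC it was that of N2 as well, with 1908 for fmo-1, 1115 for fmo-4, 409 for fmo-5 and 213 for fmo-3, or 1950.2, 1006, 423 and 198 without N2-3-vitC. fmo-2 was the lowest member in every group, and the libraries of genes next to each other in the order did not overlap in any group. Its level per kb in N2 vitC was 64.9 ± 95.4, a mean that stands for no single library of that group, and 9.93 without N2-3-vitC.

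**Figure D2:**
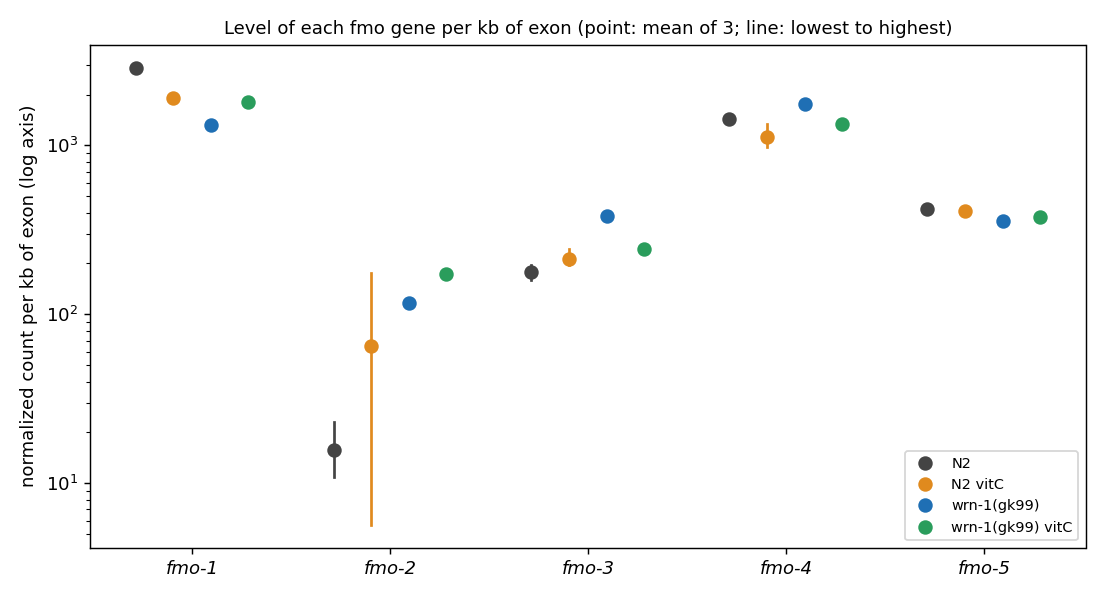
Level of each fmo gene as normalized count per kb of exon (log y axis) in the 4 groups, with a point for the mean of 3 libraries and a line from the lowest to the highest. fmo-1 is above fmo-4 in N2 (2853 against 1438) and below it in wrn-1(gk99) (1329 against 1756), and fmo-2 is the lowest member in each group.

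The first comparison asked how the untreated strains differ. The fmo genes moved in both directions: the group mean of fmo-2 was 7.43-fold higher in wrn-1(gk99) than in N2, that of fmo-3 2.13-fold and that of fmo-4 1.22-fold higher, while fmo-1 was 2.15-fold and fmo-5 1.18-fold lower. The libraries of the strains did not overlap for any of the 5, from which nothing is read. Strain differences were common, with 9064 of the 14352 genes tested at an unadjusted p under 0.05 in limma. A gene was called where limma's adjusted p, by Benjamini-Hochberg over all genes tested, was under 0.01, the group means differed at least 2-fold and the mean of a compared group was above the minimum set in the study's methods, so that the lowest such mean among the genes called here was 145.1 normalized counts. By that rule 10.8% of the 14352 genes tested were called in this comparison, and 2 of the 5 fmo genes, fmo-1 and fmo-3. Since the family was selected on this contrast, nothing is read from that count. fmo-2 met the parts of the rule on ratio and level and missed only that on the adjusted p. Its standard error of 0.87 came from a spread shared with the N2 vitC libraries. The study lists fmo-2 and fmo-3 among the oxidation-reduction genes raised in the mutant, from its own DESeq comparison. With libraries scaled to equal totals, which moved the median log2 difference of all genes from 0.01 to 0.17, 1 member was called, since the log2 difference of fmo-1 was -0.94 in place of -1.10.

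Between the strains grown with vitamin C, the libraries overlapped for all 5 members, and the library labelled N2-3-vitC had values like those of the mutant group. It was 1.01 times the mean of wrn-1(gk99) vitC for fmo-1 and fmo-2, 0.995 times for fmo-3, 0.997 times for fmo-4 and 1.00 times for fmo-5. limma called 0% of all genes in this comparison, with 6016 genes at an unadjusted p under 0.05. edgeR also called 0 genes and DESeq2 called 156. Without that library limma called 978 genes. The ratio of group means of fmo-2 was 2.67 with all libraries. Against N2 vitC replicates 1 and 2, the mean of wrn-1(gk99) vitC was then 17.5-fold for fmo-2, 1.33-fold for fmo-4, 1.23-fold for fmo-3, 0.924-fold for fmo-1 and 0.896-fold for fmo-5.

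Treated mutant worms were also set against untreated N2, to see how far they were from the wild type level. This comparison shares its N2 libraries with the first one, so the values are given side by side and not as separate evidence. The ratio of group means was 11.1 for fmo-2, 1.37 for fmo-3, 0.930 for fmo-4, 0.900 for fmo-5 and 0.632 for fmo-1, against 7.43, 2.13, 1.22, 0.847 and 0.466 without vitamin C. fmo-1, fmo-3 and fmo-5 were nearer to untreated N2 in treated mutants than in untreated ones, fmo-2 was further away, and fmo-4 had passed from above to below. The groups did not overlap for any of the 5, from which nothing is read. Of the 14352 genes tested, 7340 had an unadjusted p under 0.05 in limma. In this comparison 3.7% of all genes were called, and 1 of the 5 members, fmo-2, a count from which nothing is read. With equal totals the log2 difference of fmo-4 changed sign, from -0.10 to 0.08, and that of fmo-5 from -0.15 to 0.03, while the median of all genes moved to 0.19.

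The tests concern the response of each strain to vitamin C. In N2, fmo-1 fell with vitamin C to 0.669 of its untreated mean, from 5708 ± 67.5 to 3818 ± 149 normalized counts (SD, n = 3). Its log2 change was -0.58 (SE 0.06, limma adjusted p = 4.84e-05), and it was -0.55 without N2-3-vitC (adjusted p = 3.84e-07). No other member passed the threshold of 0.01 with all 12 libraries. fmo-4 had a log2 change of -0.38 (SE 0.10, adjusted p = 0.0144), and without the doubtful library it passed, at -0.52 (SE 0.05, adjusted p = 6.34e-07).

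The remaining members gave no change in N2 past the threshold. For fmo-3 the log2 change was 0.25 (SE 0.10, adjusted p = 0.102), and 0.15 without that library (adjusted p = 0.140). For fmo-5 it was -0.05 (adjusted p = 0.698), with 0.01 without the library. The log2 change of fmo-2 depended on that library alone for its sign: 0.71 (SE 0.87, adjusted p = 0.605) with it and -0.68 (SE 0.31, adjusted p = 0.0774) without it. The other 5 libraries of N2 and N2 vitC held 8 to 29 reads of fmo-2 each. No member was called in N2 by limma, edgeR or DESeq2, which gave fmo-2 no adjusted p, while 3 of 5 had an unadjusted p under 0.05 in limma. Of all 14352 genes tested, 2.49% were called and 4996 had an unadjusted p under 0.05.

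In wrn-1(gk99) vitamin C moved 2 members past the threshold, in opposite directions. fmo-1 rose 1.36-fold, from 2659.8 ± 113 to 3607 ± 104 normalized counts (log2 change 0.44, SE 0.06, limma adjusted p = 0.000342). fmo-3 fell to 0.640 of its untreated mean, from 620.0 ± 30.8 to 397 ± 11.2 (log2 change -0.64, SE 0.10, adjusted p = 0.00104). Both changes kept their direction and stayed under an adjusted p of 0.01 in all 16 alternatives run.

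fmo-4 in the mutant went from 3550.4 ± 113 to 2703 ± 46.9, 0.761 of its untreated mean (log2 change -0.39, SE 0.10, adjusted p = 0.0143), and it passed without N2-3-vitC (SE 0.04, adjusted p = 4.23e-06). fmo-2 went from 193 ± 7.88 to 288 ± 14.1 with no overlap, a ratio of 1.49. With the spread of all 12 libraries its log2 change of 0.57 had a standard error of 0.87 (adjusted p = 0.718), with that library left out 0.27 (adjusted p = 0.113), and in a fit of the mutant groups alone 0.07 (adjusted p = 0.000178). The size of the change was nearly the same in each fit, and only its error differed. fmo-5 had a log2 change of 0.09 (adjusted p = 0.473). No member was called by limma, edgeR or DESeq2, beside 1.8% of all genes called. At an unadjusted p under 0.05 in limma were 3 of 5 members and 4487 of all 14352 genes tested.

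The direct test of whether the strains responded differently was past the threshold for fmo-1 and fmo-3. By its definition this difference is also the strain difference with vitamin C minus the untreated one. Its p-values are therefore not independent of the strain comparison, from which nothing is read. The 2 strain differences were -0.08 and -1.10 for fmo-1, and 0.20 and 1.09 for fmo-3. The log2 change of fmo-1 was 1.02 higher in the mutant than in N2 (SE 0.08, limma adjusted p = 6.82e-06), since it fell in one strain and rose in the other. That of fmo-3 was 0.89 lower in the mutant (-0.89, SE 0.14, adjusted p = 0.000870). Without N2-3-vitC the differences were 0.99 (adjusted p = 1.76e-08) and -0.79 (adjusted p = 3.43e-05). Where a call also asked for a difference of at least 1 and the same minimum level, fmo-1 was called with 12 libraries and not without that library. In all, 6.14% of genes were called, and 1 of the 5 members.

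For fmo-4, with log2 changes of -0.38 in N2 and -0.39 in the mutant, the difference in response was -0.01 (SE 0.14, adjusted p = 0.964), or 0.12 without that library (SE 0.07, adjusted p = 0.142). For fmo-5 it was 0.13 (SE 0.10, adjusted p = 0.384), or 0.08 without that library (SE 0.08, adjusted p = 0.457). For fmo-2 it was -0.14 (SE 1.23, adjusted p = 0.950) with all libraries and 1.26 without N2-3-vitC (SE 0.41, adjusted p = 0.0206), neither past the threshold.

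**Figure D3:**
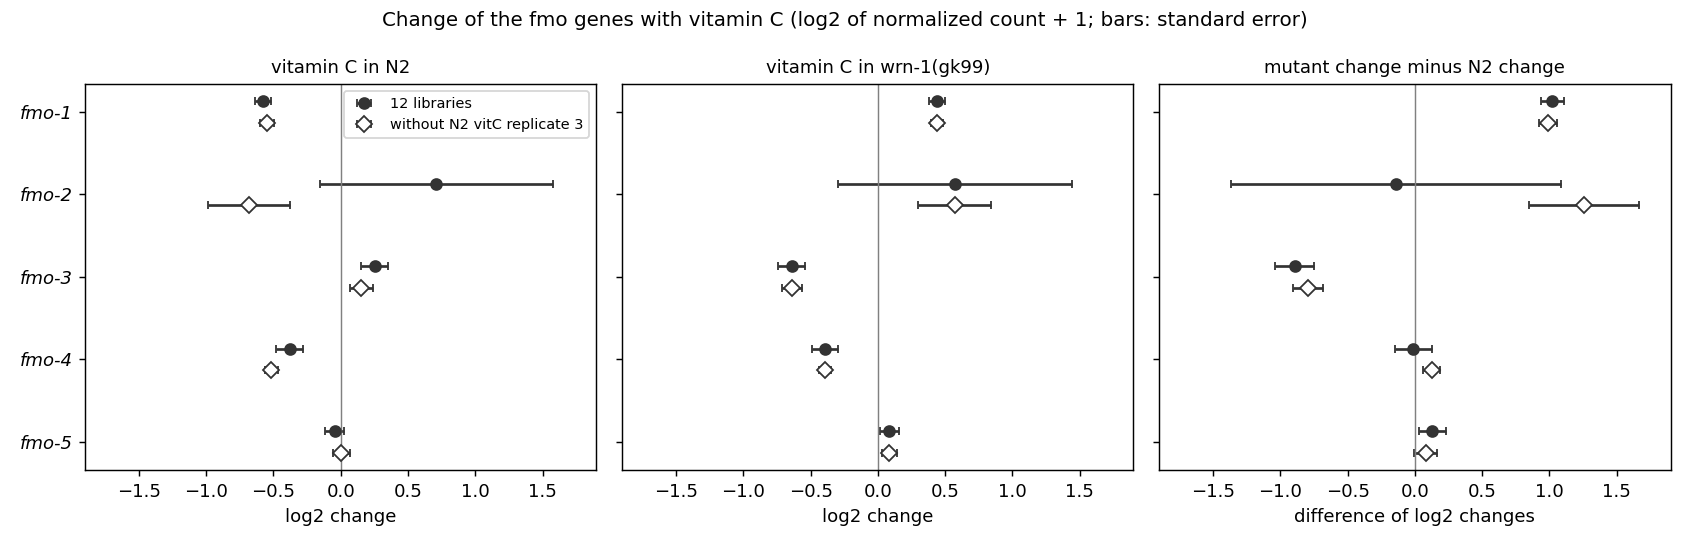
Change of each fmo gene with vitamin C on the log2(normalized count + 1) scale (x axis) in N2, in wrn-1(gk99) and as the mutant change minus the N2 change, with standard errors, for all 12 libraries (filled circles) and without N2-3-vitC (open diamonds). fmo-1 is at -0.58 in N2 and 0.44 in the mutant with all 12 libraries, and at -0.55 and 0.44 without N2-3-vitC, while fmo-2 in N2 moves from 0.71 to -0.68.

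Across the 12 libraries the members did not follow one pattern. As a description, with points that share groups and libraries, the log2 values of fmo-1 correlated at -0.925 with those of fmo-3 and at 0.828 with those of fmo-5, and fmo-3 correlated at -0.863 with fmo-5. fmo-2 correlated at 0.686 with fmo-3 and at -0.654 with fmo-1. Without N2-3-vitC these 5 coefficients were -0.926, 0.829, -0.868, 0.717 and -0.671. Of the genes next to fmo-2, K08C7.6 had means of 624 in N2, 517 in N2 vitC, 348 in wrn-1(gk99) and 447 in wrn-1(gk99) vitC, and K08C7.4 had 59.3, 52.9, 64.6 and 71.4. K08C7.7, next to fmo-1, had means of 125, 107, 103 and 119 normalized counts in the same order of groups.

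The genes whose log2 values were most correlated with fmo-2 over the 12 libraries were pgam-5, a mitochondrial phosphatase gene, at 0.990, R17.2 at 0.988, Y69H2.7 at 0.985, clec-67, a C-type lectin gene, at 0.985 and F58G6.3 at 0.982. They were chosen by this correlation over the same 12 libraries, so that all 5 were also high in N2-3-vitC follows from the choice. Without that library the coefficients of the same genes were 0.989, 0.992, 0.984, 0.984 and 0.983, and the genes were not chosen again. clec-67 had 904, 965 and 929.6 normalized counts in N2, 817, 831 and 1772 in N2 vitC, 1546, 1496 and 1529 in wrn-1(gk99) and 1651, 1641 and 1747 in wrn-1(gk99) vitC. Its range was far narrower than that of fmo-2. pgam-5 spanned 1221 to 1820 over all libraries, from 1263 to 1359 in N2 and from 1727 to 1772.5 in wrn-1(gk99).

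**Figure D4:**
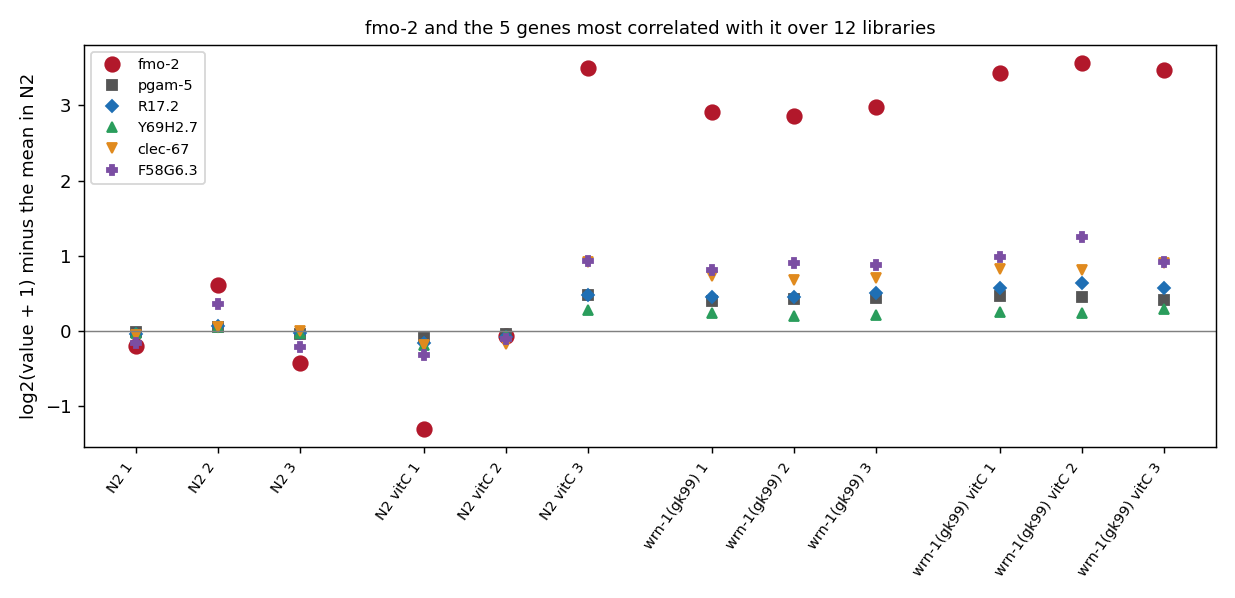
Values of fmo-2 and of the 5 genes most correlated with it, as log2(normalized count + 1) minus the mean of the 3 N2 libraries (y axis), in each of the 12 libraries (x axis). fmo-2 and all 5 genes are high in N2 vitC replicate 3 and in every library of the mutant, which follows from choosing them by this correlation. fmo-2 has the widest span.

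For fmo-1 the nearest patterns were those of tsp-15, a tetraspanin gene, at 0.995, T28D6.5 at 0.994 and F35C8.2 at 0.993. tsp-15 had means of 4714 in N2, 2419 in N2 vitC, 1313 in wrn-1(gk99) and 2087 in wrn-1(gk99) vitC, the order of fmo-1 with a wider span. Those of fmo-3 were rps-2, a ribosomal protein gene, at 0.988, cyp-35A3, a cytochrome P450 gene, at 0.987 and lipl-5, a lipase gene, at 0.987. cyp-35A3 had 91.3, 102 and 97.0 in N2 and 665, 687 and 702 in wrn-1(gk99), and 192, 210.4 and 209 in wrn-1(gk99) vitC. For fmo-4 they were T05E12.6 at 0.994, R74.2 at 0.987 and the collagen gene col-156 at 0.981, and for fmo-5 the most alike included hgrs-1, an endosomal sorting gene, at 0.964 and the autophagy gene atg-16.2 at 0.963.

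Of 12 genes known to act upstream of fmo-2, all tested, 0 were called between the untreated strains in limma, edgeR and DESeq2. In that comparison limma called 10.8% of all genes. Their median log2 difference was -0.14 beside 0.01 over all genes. At an unadjusted p under 0.05 in limma were 7 of the 12, beside 9064 of all 14352 genes tested. hif-1, the hypoxia factor, had means of 6288 in N2, 5529 in N2 vitC, 5301 in wrn-1(gk99) and 4671 in wrn-1(gk99) vitC, and nhr-49, the nuclear receptor of the fasting response, had 2859, 3133, 2551 and 2668. The gene of this list that was called in other comparisons was rhy-1, an acyltransferase-like regulator of HIF-1 that is also one of its targets. It had 137, 123 and 116 normalized counts in N2, 227, 223 and 324 in N2 vitC, 216, 236 and 245.5 in wrn-1(gk99) and 286, 313 and 329 in wrn-1(gk99) vitC. All other groups were above N2. rhy-1 was called as higher with vitamin C in N2 (log2 change 1.02, SE 0.14, limma adjusted p = 0.000384), the 1 gene of the list called there, but not without N2-3-vitC, without N2 replicate 3 or in a fit of those groups alone. In the mutant its log2 change was 0.41 (adjusted p = 0.0653), and without N2-3-vitC the changes in N2 and in the mutant were 0.84 (adjusted p = 5.75e-06) and 0.41 (adjusted p = 0.00181).

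Among 7 genes known as targets of HIF-1 or NHR-49, 6 were tested, and 2 were called as higher in the untreated mutant, beside 10.8% of all genes called. The list median was 0.05, and by direction alone 3 of 6 were higher there. acs-2, an acyl-CoA synthetase gene, had 619, 553 and 611 normalized counts in N2 and 1986, 1938 and 1956 in wrn-1(gk99) (log2 difference 1.72, SE 0.35, limma adjusted p = 0.00133). cysl-2, for a cysteine synthase-like enzyme, had 319.7, 322 and 336 against 871, 876 and 845 (log2 difference 1.40, SE 0.19, adjusted p = 6.44e-05). nhr-57, a nuclear receptor gene induced in hypoxia, had a mean of 217 in untreated N2, against 144 in the untreated mutant, and a log2 difference of -0.59. K05B2.4, at -0.59, and fat-5, at -0.86, were also lower in the untreated mutant. fat-7 was listed at 0 in all 12 libraries, and whether through absent expression or through counting or annotation was not tested.

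In the treated mutant acs-2 and cysl-2 lay on the other side of the untreated mutant from fmo-2. In wrn-1(gk99) vitC acs-2 had 1118, 1025 and 1012 and cysl-2 had 565, 642 and 593, all below every untreated mutant library, where fmo-2 was above them. Their log2 changes were -0.90 (adjusted p = 0.0985) and -0.53 (adjusted p = 0.0694), with adjusted p-values of 9.53e-09 and 5.81e-06 without N2-3-vitC. In N2 vitC the third library again carried the mutant level, with acs-2 at 314, 316 and 1065 normalized counts. fat-5, a fatty acid desaturase gene, was the 1 gene of the list whose vitamin C response was called as different, by 1.24 on the log2 scale (SE 0.20, adjusted p = 0.000787), with means of 2700.5, 1735 and 1492 in N2, N2 vitC and wrn-1(gk99) and of 2205.5 in wrn-1(gk99) vitC. Without N2-3-vitC the difference was 1.45 (SE 0.07, adjusted p = 9.54e-10), and the N2 vitC mean was 1462, with libraries that overlapped those of the untreated mutant.

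Of 9 genes grouped under NADPH and flavin supply, 7 were tested and 1, idh-1, was called between the untreated strains, beside 10.8% of all genes. idh-1 encodes the cytosolic NADP-dependent isocitrate dehydrogenase and had 3151, 3237 and 3616 in N2 and 9083, 9213 and 9567 in wrn-1(gk99) (log2 difference 1.48, SE 0.16, limma adjusted p = 1.70e-05). The list median was 0.28. The list includes emb-8, the gene of the NADPH-cytochrome P450 reductase, which uses NADPH and does not supply it. emb-8 had means of 2369 and 2847 and was not called. Among 8 one-carbon genes 1 was called, cbs-1, a cystathionine beta-synthase gene, beside the same 10.8% of all genes. It had 211, 209.5 and 197 against 661, 658 and 737 (log2 difference 1.73, SE 0.12, limma adjusted p = 5.64e-07), with a list median of -0.24. With equal totals 1 further one-carbon gene, ahcy-1, and rhy-1 of the upstream list were called as well.

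With vitamin C, none of the targets, supply genes or one-carbon genes was called in N2 and none of all 4 lists in wrn-1(gk99), in limma, edgeR and DESeq2. At an unadjusted p under 0.05 in limma there were 3 of 6, 1 of 7 and 6 of 8 in N2, and 4 of 6, 3 of 7, 5 of 8 and 4 of the 12 upstream genes in the mutant. Over all 14352 genes tested there were 4996 in N2 and 4487 in the mutant, where limma called 2.49% and 1.8% of all genes. In treated mutants against untreated N2, rhy-1 and cbs-1 were called as higher and metr-1, the methionine synthase gene, as lower, at a mean of 12707 against 25974, a call lost with equal totals and without wrn-1(gk99) vitC replicate 2. The responses of idh-1 and cbs-1 were called as different between strains, by -1.04 (SE 0.23, adjusted p = 0.00639) and -1.15 (SE 0.18, adjusted p = 0.000580), and neither was called without N2-3-vitC, where the differences were -0.78 (adjusted p = 1.46e-06) and -0.98 (adjusted p = 1.62e-06). The call of idh-1 was also lost when any one of the N2, wrn-1(gk99) or wrn-1(gk99) vitC libraries was left out. Like fmo-3, both genes were highest in the untreated mutant, with means of 9288 and 685, and lower in the treated mutant, with 5795 and 488.

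**Figure D5:**
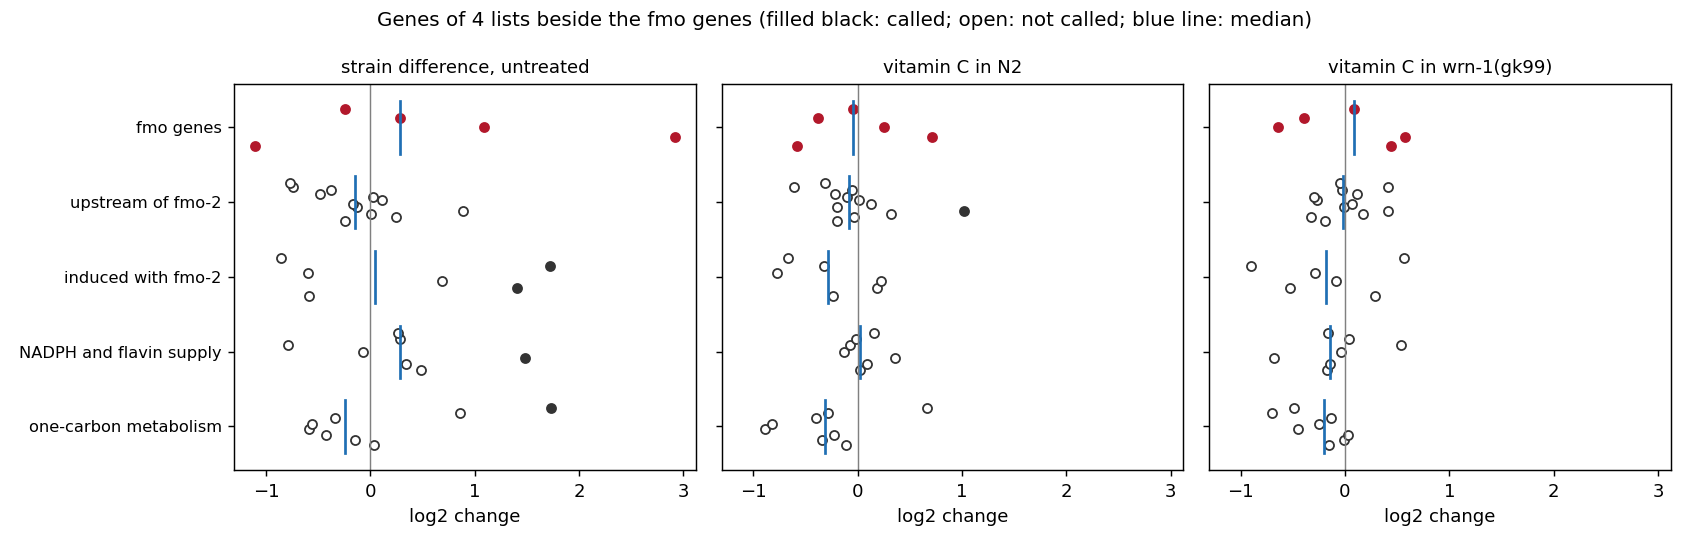
Log2 change of each gene (points, x axis) in 4 lists and of the 5 fmo genes, between the untreated strains and with vitamin C in each strain, with the median of each row as a blue line. Filled black points were called, open ones were not, and the red fmo genes are shown without calls. In the strain comparison 4 list genes were called, acs-2, cysl-2, idh-1 and cbs-1, beside 10.8% of all genes. The point at 2.92 is fmo-2, on whose strain difference the family was chosen, so nothing is read from its place.

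Marker genes of tissues and of the molting cycle also differed between the groups, and their part in the fmo results was not tested. The 8 intestine markers summed to 38357 to 39283 normalized counts per library in N2, 34624 to 47262 in N2 vitC (the highest in N2-3-vitC), 72882 to 76124 in the untreated mutant, and 47547 to 52201 in wrn-1(gk99) vitC. Of these, 2 of 8, ifb-2 and asp-1, were called as higher in the untreated mutant while the intestinal factor elt-2 had means of 1285 and 782. In either size of change, 5 of 8 were higher there, and asp-1, with a large share of the sum, had means of 19115.5 and 39632.5. The 6 hypodermis markers summed to 75262 to 79343, 57922 to 73250, 57927 to 58290 and 54677 to 62147 in the same order of groups, with 1 called as higher, rol-6. Most of this sum was sqt-3, with means of 65371 in N2 and 40558 in the untreated mutant. By gene, 4 of 6 were higher in the untreated mutant, with a median log2 difference of 0.07. The 6 molting cycle markers summed to 30109 to 33118 in N2 and 50981 to 54849 in wrn-1(gk99), with 1 called, nas-37, a call lost with equal upper quartiles and, without N2 replicate 3, replaced by nhr-23. In N2 vitC they summed to 118427 and 118210 in replicates 1 and 2 and to 37228 in replicate 3, and in wrn-1(gk99) vitC to 34122 to 47566. With vitamin C in N2, noah-1, noah-2 and nhr-23 of this list were called as higher, and 5 of 6 without N2-3-vitC. Germline markers gave 8990 to 9450 in N2 and 14250 to 14594 in wrn-1(gk99), with 1 of 4 called, pgl-3, and 0 of 4 muscle and 0 of 4 neuron markers were called by limma, edgeR and DESeq2, with 1 and 3 at an unadjusted p under 0.05 in limma. Between the untreated strains 9064 of all 14352 genes tested had an unadjusted p under 0.05 and 10.8% were called by limma. With vitamin C in N2 limma called 2.49% of all genes. No marker was at 0.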

How the data were processed

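The authors aligned the short reads of whole worm libraries to ce10 (TopHat), counted reads on genes (HTSeq) and scaled the counts by DESeq size factors. The deposited signal is the scaled count, 1 column a library, and 0 columns stayed unmatched. Tool versions, counting mode and strand setting are not given in the sources used here. In each library 100% of nonzero values were whole multiples of one step (tolerance 0.05), which gave the reads behind each value. All 12 libraries were fitted in 4 groups in R 4.3.3 with limma 3.58.1 (trend) on log2(normalized count + 1), for the 14352 genes whose mean was at least 10, a scale that understates changes of low genes. Adjusted p-values are Benjamini-Hochberg over these genes. The scripts were tested on simulated data. Alternatives changed the pseudocount (0.1 or 10), the filter, scaling, groups fitted, thresholds and libraries, added a replicate block, or ran edgeR 4.0.16 and DESeq2 1.42.0 on recovered reads. edgeR called 1557, 0, 527, 390, 260 and 920 genes in the 6 comparisons, in the order of the report. A fit of N2 and N2 vitC without N2-3-vitC was chosen after seeing the data. The members, lists and tests were chosen with earlier results of these data known. Named genes are the 5 members, genes of the lists, the 3 (fmo-2: 5) genes most correlated with each member, neighbouring genes and wrn-1. Of 68 list genes 66 were found by symbol or sequence name. Sequences were not used here, so the sequence comparisons planned for the family were not run.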

Additional observations from a re-analysis of the deposited data

Results flagged for a closer look

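The response of fmo-1 to vitamin C differed between the strains by a test of the difference itself: the log2 change was 1.02 higher in wrn-1(gk99) than in N2 (limma, SE 0.08, adjusted p = 6.82e-06), falling in N2 and rising in the mutant, with no overlap of treated and untreated libraries in either strain. The response of fmo-3 differed in the opposite sense, with a log2 difference of -0.89 (SE 0.14, adjusted p = 0.000870). Over the 20 alternatives run, these differences ranged from 0.94 to 1.05 for fmo-1 and from -0.98 to -0.79 for fmo-3. Each difference contains the untreated strain difference, so its p-value is not independent of that comparison, from which nothing is read.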

How the results depend on the processing

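The changes of fmo-1 with vitamin C in each strain, of fmo-3 in the mutant, and both differences in response kept their direction and their side of the threshold in every alternative run. In N2 the log2 change of fmo-2 was -0.68 without N2-3-vitC, also in a fit of its 2 groups alone, and ranged from -0.68 to 1.72 when single libraries were left out. That of fmo-5 was 0.055 with equal totals, 0.0052 in the added fit without N2-3-vitC, and -0.091 to 0.0052 without single libraries. The difference in response ranged from -1.15 to 1.26 for fmo-2 and from -0.10 to 0.12 for fmo-4 without single libraries. fmo-4 passed the threshold in 3 of 16 alternatives in each strain.

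The number of members called between the untreated strains was 1 with equal totals. It was 3, with fmo-2 added, in the fit of those groups alone, at an adjusted p under 0.05 and without N2-3-vitC. In treated mutants against untreated N2 it was 0 with all nonzero genes tested, with the replicate block and with DESeq2, and 0 to 1 without single libraries. Between the treated strains it was 0 to 1, with 1 only without N2-3-vitC. For the difference in response it was 0 with equal totals and 0 to 1 without single libraries. The causes were not tested.

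The deviations of same-numbered libraries from their group means correlated at -0.08 to 0.17 (18 pairs, 5 of them over 0.1), so the numbers were not taken as pairs. The replicate block left 2 members called between the untreated strains and 1 in the difference in response. It ended the call of fmo-2 in treated mutants against untreated N2 and that of elt-1 with vitamin C in N2, added noah-1 in the difference in response, and changed no other call of a member or listed gene. Outside N2-3-vitC, fmo-2 rests on 8 to 29 reads in each library of N2 and N2 vitC.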
